A study of Mus musculus with 9 samples.

Results

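The calcium handling and excitation-contraction coupling genes of the mouse heart were described at 3 stages around birth. They were chosen by symbol from a list that covers the sarcoplasmic reticulum (SR), the dyad, the calcium channels, the exchanger and pumps of the cell surface and the mitochondrial calcium uniporter. The list holds 42 of the 48820 genes in the expression table, and each of the 42 symbols named 1 gene. In a cardiomyocyte, an action potential opens voltage-gated calcium channels, and the calcium that enters opens ryanodine receptors in the nearby SR membrane, which release the stored calcium that drives contraction. Relaxation follows as a pump returns calcium to the SR and an exchanger carries it out across the surface membrane. The immature heart is known to depend more on calcium that crosses the surface membrane, and the adult heart more on the SR store, which is reached along membrane folds called T-tubules.

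The study asked how gene expression and metabolism differ between the fetal and the neonatal mouse heart. RNA sequencing covered 9 hearts of the C57BL/6J strain, namely 3 biological replicates at embryonic day 18.5 (E18.5d), 3 at postnatal day 1 (P1d) and 3 at postnatal day 7 (P7d). All 9 were of WT genotype, had no treatment and carried the sex label male. Whether a replicate was 1 heart or a pool of hearts was not given in the sources used here, and it is called a heart below. Levels are FPKM, which counts fragments for each kilobase of transcript and each 1e6 fragments mapped, so that genes of unlike length can be compared. Steps between low FPKM values gave an estimated depth of 25.5, 37.5 and 31.25 times 1e6 fragments in E18.5d replicates 1, 2 and 3, of 29.0, 27.5 and 29.75 in the P1d hearts and of 36.5, 41.75 and 45.0 in the P7d hearts. Sets of 3 values are given in this order of replicates throughout. Stages were compared with limma on log2(FPKM + 1), in 1 fit of all 9 hearts, for the 13618 genes whose mean over the hearts reached 1 FPKM, and p-values were adjusted over all of these by the Benjamini-Hochberg method. A gene was called higher or lower at an adjusted p under 0.05. Log2 changes are on this scale, which understates the change of low genes, and folds are ratios of mean FPKM. The 3 comparisons share hearts, so they are not independent of each other.

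In 4 of the 9 hearts the transcripts went against the sex label. *Xist*, the RNA that coats the inactive X chromosome of females, was at 82.6 and 97.0 FPKM in E18.5d replicates 1 and 3 and at 58.0 and 70.0 FPKM in P7d replicates 2 and 3, and 4 Y-linked genes (*Uty*, *Kdm5d*, *Eif2s3y* and *Ddx3y*) were at 0 there. The other 5 hearts had at most 0.11 FPKM of *Xist*. Transcripts of airway secretory cells were present in 3 hearts. *Scgb3a1* was at 34.85 and 115 FPKM in E18.5d replicates 1 and 2 and at 270.3 FPKM in P1d replicate 1, against at most 2.97 FPKM in the other 6. The 6 lung genes listed summed to 90.8, 251 and 1.98 FPKM in the E18.5d hearts, 492, 3.2 and 1.1 FPKM in the P1d hearts and 0, 0.10 and 0.27 FPKM in the P7d hearts, while the alveolar genes *Sftpc*, *Sftpb* and *Sftpa1* did not pass 0.63 FPKM in any heart. The tissue label was checked against 8 cardiomyocyte markers, of which *Myl2* was the most abundant. They summed to 37209.8, 35094 and 34791 FPKM at E18.5d, 40928, 39258 and 44303 FPKM at P1d and 42343, 44203 and 42662 FPKM at P7d, with 4 higher at P1d against E18.5d, 3 higher and 1 lower at P7d against P1d, and 4 higher and 1, *Tnnt2*, lower in P7d hearts against E18.5d. These are bulk samples, in which fewer cells of a type and less RNA per cell cannot be told apart.

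Of the 42 genes, 40 passed the filter on low values, and the skeletal muscle isoforms *Atp2a1* and *Cacna1s* did not. At P1d against E18.5d, 9 of the 40 (22.5%) were higher and 8 (20.0%) were lower, beside 18.4% and 27.6% of all genes tested. At P7d against P1d, 10 (25%) were higher and 12 (30.0%) were lower, beside 15.5% and 28.6% of all genes. At P7d against E18.5d, 9 (22.5%) were higher and 14 (35.0%) were lower, beside 12.5% and 36.9% of all genes. The shares that were lower at P7d thus lay near the background, and the shares that were higher lay somewhat above it, a gap that was not tested. The median log2 change of the 40 genes was -0.0107, 0.0617 and 0.0199 in these comparisons, beside -0.0582, -0.0932 and -0.1732 over all genes tested. In all, 30 of the 40 (75%) were called in at least 1 comparison, beside 71.8% of all genes tested. The scale of the columns bears on these counts. The FPKM of all genes summed to 1794160 in P1d replicate 2, against 1347981 to 1520448 in the other hearts. The part of that heart in the results with equal sums was not tested. The median of all genes moved to -0.2081, 0.0172 and -0.2111 with columns rescaled to an equal sum, to 0.0021, 0.0013 and -0.0182 with median of ratios and to 0.0085, -0.0082 and -0.0213 with quantile normalization. At P1d against E18.5d, the equal sum gave 5 members higher and 12 lower (12.5% and 30.0%), beside 8.63% and 34.5% of all genes in the same fit. At P7d against P1d, it gave 9 higher and 6 lower (22.5% and 15.0%), beside 16.2% and 12.7% of all genes. There, median of ratios and quantile normalization each gave 15 higher and 9 lower (37.5% and 22.5%), beside 21.9% and 19.8% of all genes with the former and 21.1% and 20.5% with the latter. At P7d against E18.5d, median of ratios gave 14 higher and 7 lower (35.0% and 17.5%), beside 21.3% and 20.9% of all genes, and quantile normalization 13 higher and 8 lower (32.5% and 20.0%), beside 21.2% and 21.6%.

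Leaving out the 4 hearts with *Xist* left 1 E18.5d, 3 P1d and 1 P7d heart, with the lone hearts assumed to vary like the P1d hearts. Of the 17 genes called at P1d against E18.5d, 5 then kept their call (*Atp2a2*, *Pln*, *Casq1*, *Calr* and *Cacna1c*), of 22 at P7d against P1d 2 did (*Casq1* and *Hrc*), and of 23 at P7d against E18.5d 1 did (*Casq1*). None of these calls changed sign, and the other calls of the 40 genes were lost in that fit, which was run for no ratio. Of the 12, 20 and 22 calls lost, 12, 19 and 20 kept a change within 1.5 times that of all 9 hearts, the others being those of *Cacna1g* and *Fkbp1b* as given below. A covariate for *Xist* kept the call of 16 of 17, 15 of 22 and 22 of 23 genes. It ended that of *Sln* in the first comparison, those of *Atp2a2*, *Jph2*, *Calm2*, *Calm3*, *Cacna1d*, *Cacna1g* and *Itpr1* at P7d against P1d and that of *Cacnb2* at P7d against E18.5d. Leaving out the 3 hearts with airway transcripts left 1 E18.5d, 2 P1d and 3 P7d hearts, with the lone E18.5d heart assumed to vary like the other hearts, and kept 10 of 17, 16 of 22 and 15 of 23 calls. None changed sign, and of the 7, 6 and 8 calls lost, 7, 6 and 7 kept a change within 1.5 times, the other being that of *Fkbp1b*. A fit of fewer hearts has less power, so a call lost in this way need not have rested on the hearts left out. In the fits without the *Xist* hearts and without the airway hearts, the shares of all genes called fell as well, in each comparison and direction. When 1 heart of the 2 stages compared was left out, each call of the 40 genes that was lost kept its change within 1.5 times, apart from *Fkbp1b*, *Calm2* and *Cacna1d* as given below. Leaving out a heart of the other stage cannot move a change and acts only on its p-value.

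**Figure D1:**
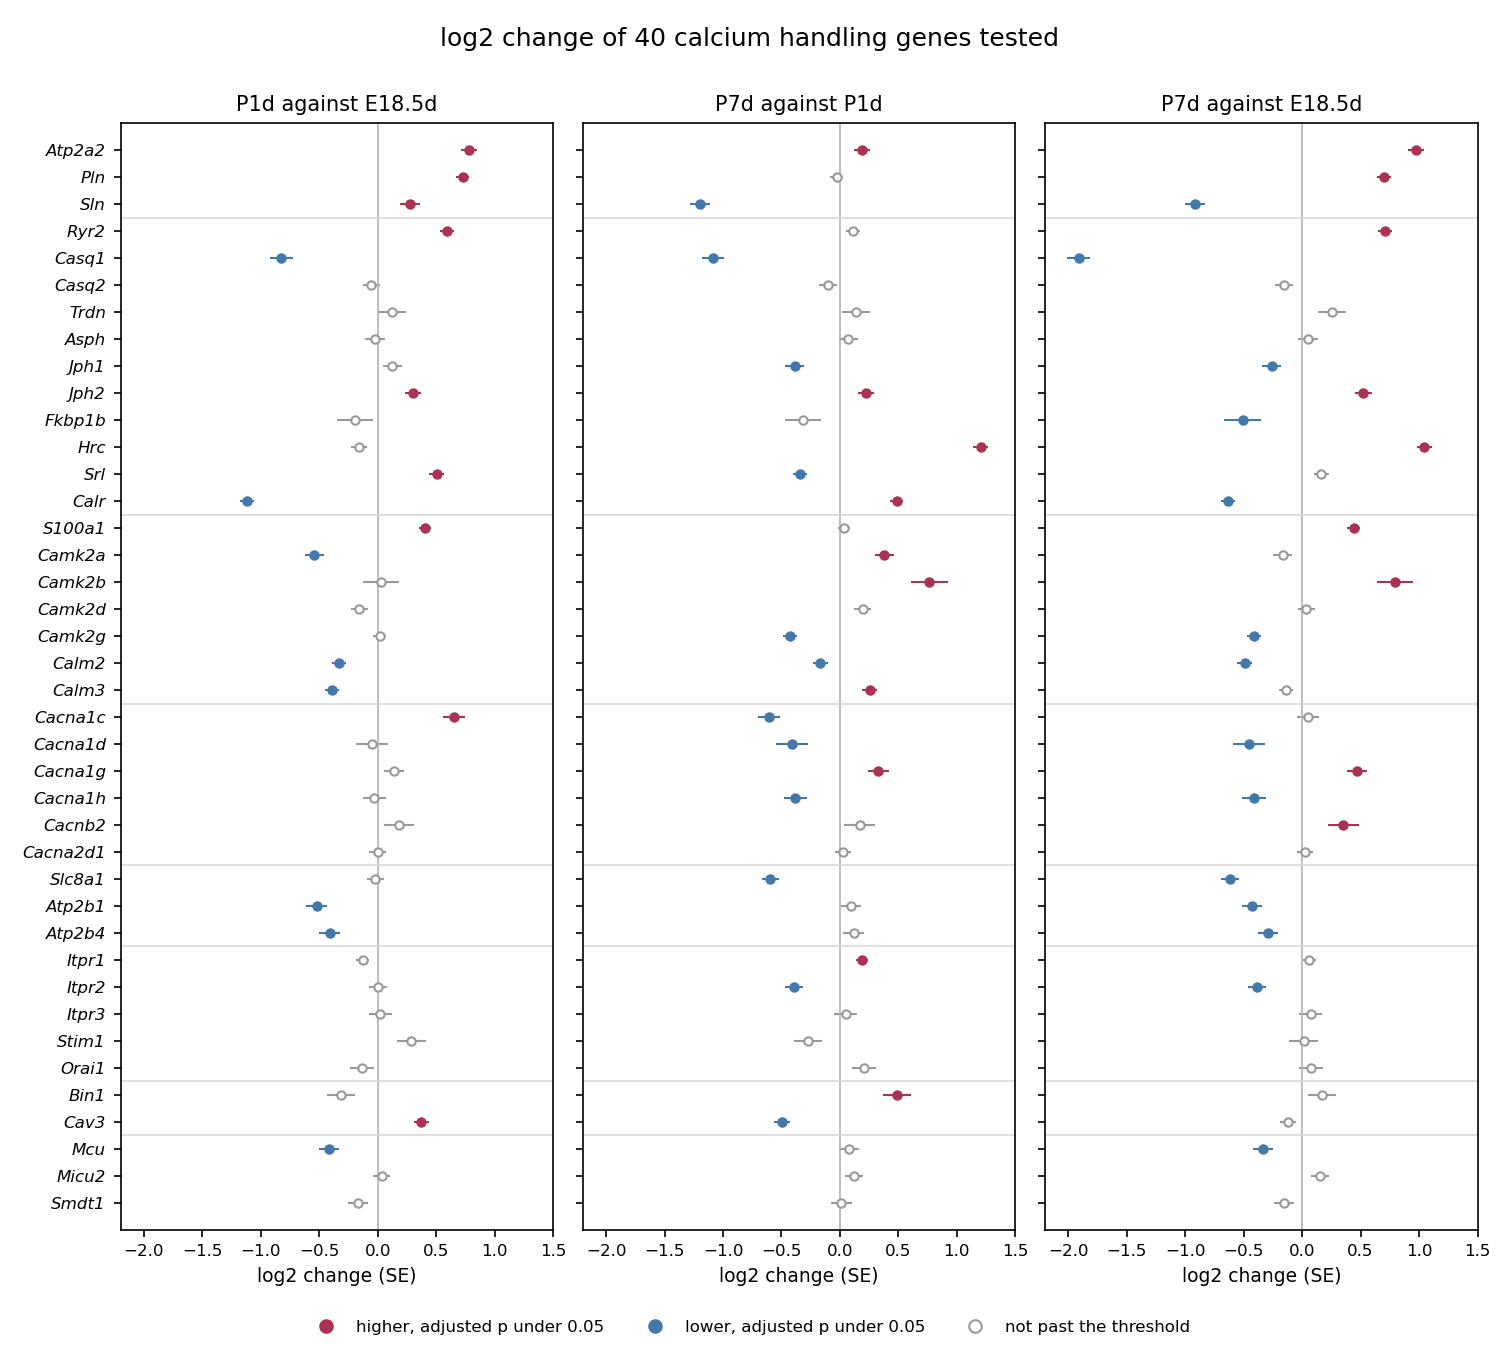
The log2 change on the scale of log2(FPKM + 1) is shown for the 40 genes tested in each of the 3 comparisons, with bars of 1 standard error; red points were higher and blue points lower at an adjusted p under 0.05, open points did not pass, and grey lines part the groups of genes by role. *Casq1* lies farthest to the left at P7d against E18.5d, and *Hrc* has the largest positive change at P7d in the fit as reported.

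The SR calcium uptake genes included the 2 most abundant of the list. Their summed FPKM was 2232, 2248 and 2252 at E18.5d, 3513, 3667 and 3559 at P1d and 3703, 3574 and 3299 at P7d, so that each neonatal heart lay above each fetal one. *Atp2a2* (ENSMUSG00000029467.15, chr5:122453513-122502225, minus strand) encodes SERCA2, the pump that returns calcium to the SR. It was at 1228, 1197 and 1192 FPKM in the E18.5d hearts, 2023, 2093 and 2106 FPKM in the P1d hearts and 2506, 2433 and 2181 FPKM in the P7d hearts. The fetal hearts were low and close together, and no stage overlapped another. *Atp2a2* rose by 0.78 at P1d against E18.5d (SE 0.068, limma, Benjamini-Hochberg adjusted p = 2.784e-05), 1.72-fold. It was 1.97-fold higher at P7d than in E18.5d hearts (log2 change 0.97, SE 0.068, limma adjusted p = 6.453e-06). The step from P1d to P7d was small, with a log2 change of 0.19 (SE 0.068, limma adjusted p = 0.04382). That call was lost without a filter, in a fit of the 2 stages alone, without the airway hearts (0.17) and on leaving out any heart but P7d replicate 3, and the change was 0.32, 0.30 and 0.40 with equal sums, median of ratios and quantile normalization. Without the *Xist* hearts the log2 change at P7d against E18.5d was 1.06, no smaller than with them.

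*Pln* (ENSMUSG00000038583.12, chr10:53337667-53345987, plus strand) encodes phospholamban, which inhibits the pump until it is phosphorylated. It was at 528, 554 and 570.2 FPKM in the E18.5d hearts, 916, 892 and 927 FPKM in the P1d hearts and 935, 885 and 864 FPKM in the P7d hearts. The P1d and P7d hearts overlapped, and both lay well above the fetal hearts. *Pln* was 1.655-fold higher at P1d than in E18.5d hearts (log2 change 0.73, SE 0.058, limma, Benjamini-Hochberg adjusted p = 1.644e-05) and 1.62-fold higher at P7d than in E18.5d hearts (log2 change 0.70, SE 0.058, adjusted p = 1.743e-05). Between P7d and P1d its log2 change was -0.03 (limma adjusted p = 0.7243), but 0.31 with an adjusted p of 0.01206 under quantile normalization, which also took the change at P7d against E18.5d to 1.06. *Sln* (ENSMUSG00000042045.5, chr9:53850164-53854560, plus strand) encodes sarcolipin, another small inhibitor of the pump, which in the adult heart is found mainly in the atria. It was at 476, 496 and 489 FPKM in the E18.5d hearts, 575, 681 and 526 FPKM in the P1d hearts and 262, 256 and 254 FPKM in the P7d hearts. The P1d hearts were the highest and the most spread, and the P7d hearts lay far under the other 6. *Sln* fell by 1.20 on the log2 scale from P1d to P7d (SE 0.086, limma adjusted p = 1.694e-05) and had a log2 change of -0.92 from E18.5d to P7d (SE 0.086, limma adjusted p = 3.567e-05). Its rise at P1d was 0.28 (SE 0.086, limma adjusted p = 0.02483). This call was lost without a filter, in a fit of the 2 stages alone, without the airway hearts (0.29), on leaving out any of the E18.5d hearts and with equal sums, where the change was 0.10, and the change was 0.17 without P1d replicate 2. The 7 atrial markers listed, with *Myl7* the most abundant, summed to 7347, 6727 and 6157 FPKM at E18.5d, 6118, 6422 and 6213 FPKM at P1d and 3403, 3181 and 3389.9 FPKM at P7d. Of these, 6 were lower at P7d than at P1d and 5 lower than in E18.5d hearts, while at P1d against E18.5d 4 were higher and 3 lower, none of the 7 was at 0, and their part in the change of *Sln* was not tested. *Atp2a1*, the pump of fast skeletal muscle, stayed under the filter, at 0.16, 0.06 and 0.12 FPKM, 0.20, 0.43 and 0.10 FPKM and 0.11, 0.08 and 0.12 FPKM in the hearts of the 3 stages, which is an estimated 7 to 37 fragments per heart.

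Ratios of FPKM within a heart do not depend on the scale factor of its column, though quantile normalization can change them. For 18 ratios of members, stages were compared by an exact two-sided permutation test over the 1680 assignments of 9 hearts to 3 stages, with Benjamini-Hochberg adjustment over the 18. The smallest p this test can give is 0.003571, whereas 3 hearts against 3 alone could not go below 0.1. Its statistic is the spread between the 3 stage means, so each p covers the 3 stages together. No single step or direction of a ratio was tested. The ratio of *Sln* to *Pln* was 0.901, 0.895 and 0.858 in the E18.5d hearts, 0.628, 0.764 and 0.567 in the P1d hearts and 0.28, 0.289 and 0.294 in the P7d hearts. No stage overlapped another, and the ratio dropped at each step (exact permutation p = 0.003571, adjusted p = 0.01607). The ratio of *Pln* to *Atp2a2* was 0.43, 0.463 and 0.478 at E18.5d, 0.453, 0.426 and 0.44 at P1d and 0.373, 0.364 and 0.396 at P7d. The P7d hearts were below the other 6, which overlapped (exact permutation p = 0.01429, adjusted p = 0.02857), and the log2 difference between P7d and E18.5d was -0.275. With quantile normalization it was -0.093 and the test over the 3 stages did not pass (exact permutation p = 0.4821, adjusted p = 0.5143), so this result depends on the scaling. After quantile normalization, p-values were adjusted over 16 of the 18 ratios. Without E18.5d replicate 2 or 3 the difference was -0.265 and -0.242, with adjusted p of 0.05 and 0.05143. The mean ratio of *Atp2a1* to *Atp2a2* was 9.37e-05, 0.000117 and 4.39e-05 at the 3 stages in turn, and its stages overlapped (exact permutation adjusted p = 0.2411). The P1d hearts were at 9.89e-05, 0.000205 and 4.75e-05, and only replicate 2 of them lay above all E18.5d hearts. With 1 FPKM added to each gene, this ratio passed with an adjusted p of 0.01286, at which the level of *Atp2a1* has little weight.

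**Figure D2:**
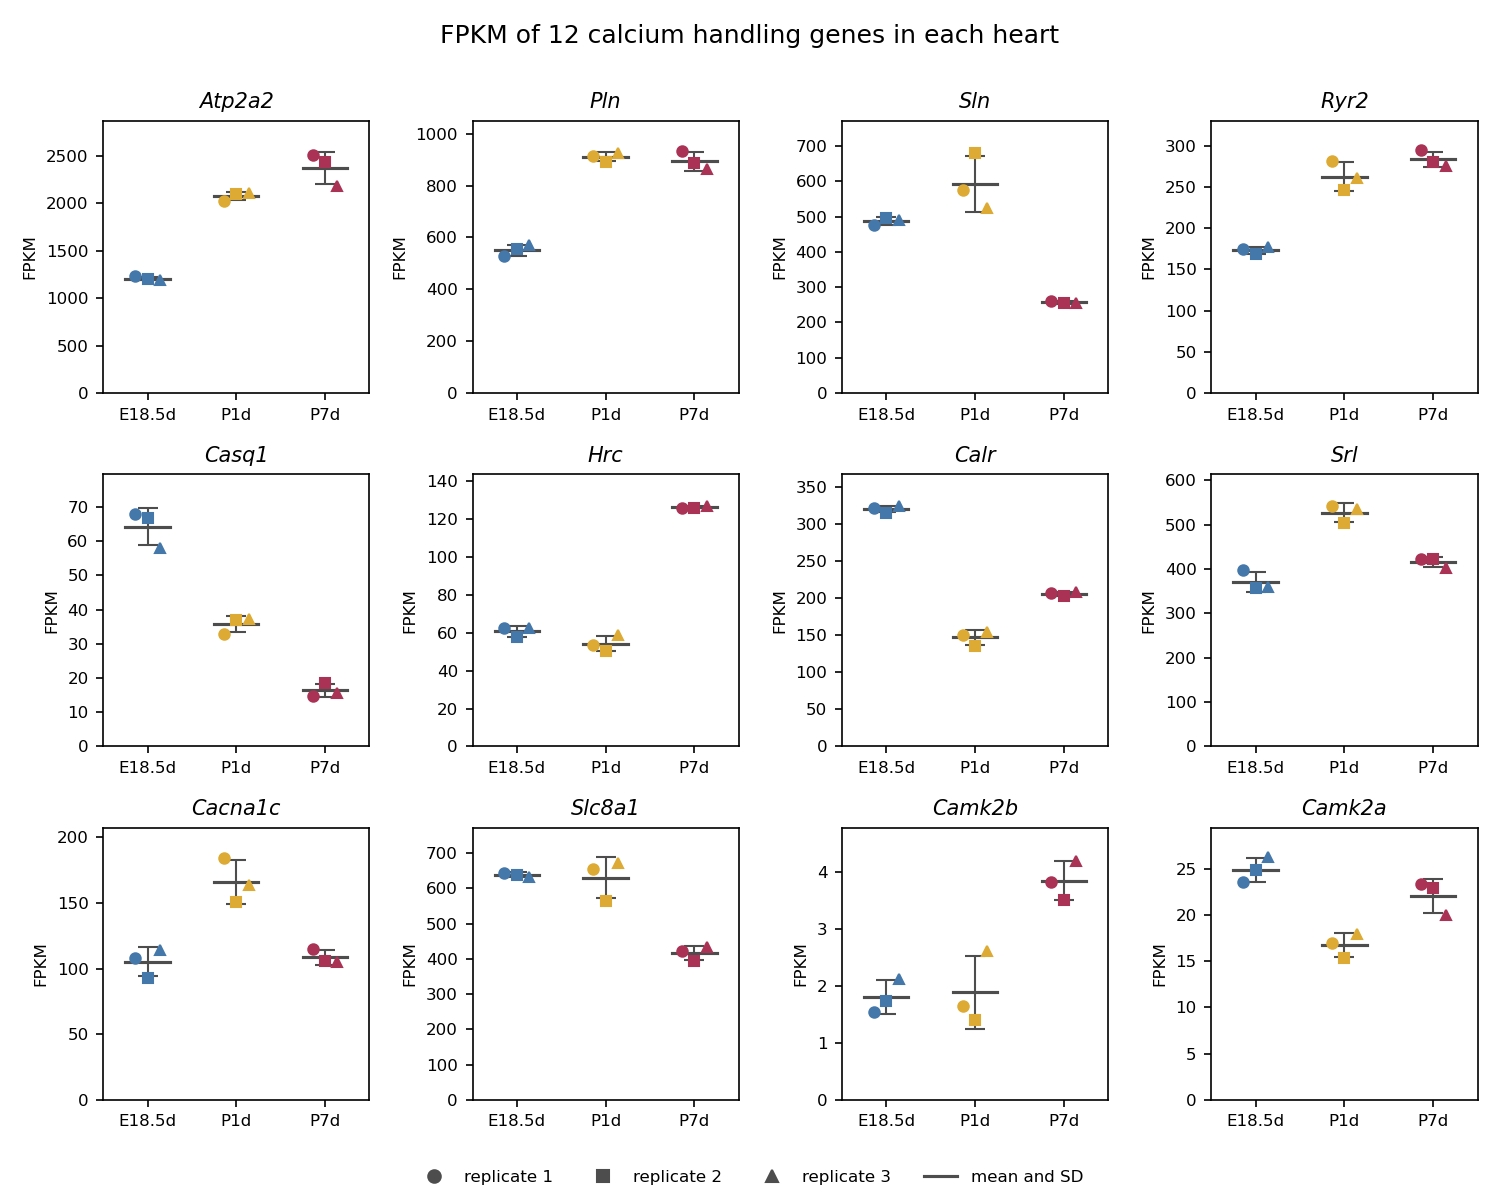
FPKM of 12 genes in each heart is shown by stage, with each point a heart, its shape the replicate number, and lines the mean and SD of 3 hearts; every axis starts at 0. The P7d hearts of *Hrc* sit at 126, 126 and 127 FPKM, above all other hearts, and those of *Sln* at 262, 256 and 254 FPKM, below all others.

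Among the 11 genes of SR release, storage and the junction with the surface membrane, 3 were higher and 2 lower at P1d than in E18.5d hearts, 3 higher and 3 lower at P7d than at P1d, and 3 higher and 4 lower at P7d than in E18.5d hearts. Beside these stand 18.4% and 27.6%, 15.5% and 28.6%, and 12.5% and 36.9% of all genes tested. *Ryr2* (ENSMUSG00000021313.15, chr13:11553102-12106945, minus strand) encodes the ryanodine receptor through which the cardiac SR releases calcium. It was at 175, 168 and 177 FPKM at E18.5d, 281, 246 and 261 FPKM at P1d and 295, 280.0 and 276 FPKM at P7d. All neonatal hearts lay above the fetal ones, and the 2 neonatal stages overlapped. *Ryr2* rose 1.52-fold at P1d (log2 change 0.60, SE 0.061, limma, Benjamini-Hochberg adjusted p = 7.052e-05) and was 1.64-fold higher at P7d than in E18.5d hearts (log2 change 0.71, SE 0.061, adjusted p = 2.251e-05). Between P7d and P1d its log2 change of 0.11 did not pass (limma adjusted p = 0.1655), though it passed with median of ratios (0.22) and quantile normalization (0.28). *Fkbp1b* (ENSMUSG00000020635.7, chr12:4833174-4841591, minus strand) encodes calstabin 2, a small protein that binds the cardiac ryanodine receptor. It was low, at 2.2, 3.86 and 2.29 FPKM at E18.5d, 2.5, 2.15 and 2.11 FPKM at P1d and 1.45, 1.72 and 1.66 FPKM at P7d, an estimated 37 to 104 fragments per heart. E18.5d replicate 2 was the highest, and the P7d hearts lay under all others. *Fkbp1b* was lower at P7d than in E18.5d hearts (log2 change -0.51, SE 0.16, limma adjusted p = 0.0227). Leaving out E18.5d replicate 2 ended the call and took the change to -0.32, and it was also lost without P7d replicate 1, without a filter, with median of ratios, quantile normalization and without the airway hearts (-0.34). Without the *Xist* hearts the change was larger, -0.99, and did not pass (adjusted p = 0.08297). Its change from P1d to P7d, -0.32 (limma adjusted p = 0.1282), passed in a fit of the 2 stages alone and without E18.5d replicate 2.

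*Casq1* (ENSMUSG00000007122.11, chr1:172209894-172219868, minus strand) encodes calsequestrin 1, the calcium-binding store protein best known from skeletal muscle, and *Casq2* encodes its cardiac counterpart. *Casq1* was at 68, 66.8 and 58 FPKM in the E18.5d hearts, 33, 37.05 and 37.4 FPKM in the P1d hearts and 14.85, 18.6 and 15.6 FPKM in the P7d hearts. It was highest before birth and lowest at P7d, and no stage overlapped another. It fell by 0.82 on the log2 scale at P1d (SE 0.096, limma, Benjamini-Hochberg adjusted p = 0.0001472), fell by 1.09 from P1d to P7d (SE 0.096, adjusted p = 4.653e-05) and fell by 1.91 from E18.5d to P7d (SE 0.096, adjusted p = 9.415e-07), where its mean was 0.255 times the fetal one. Without the *Xist* hearts the last change was -2.10 with an adjusted p of 0.02045, and without the airway hearts -1.77. *Casq2* was called in none of the comparisons, with stage means of 491, 473 and 439 FPKM. The ratio of *Casq1* to *Casq2* was 0.13, 0.141 and 0.121 at E18.5d, 0.0717, 0.0843 and 0.0719 at P1d and 0.034, 0.0404 and 0.0372 at P7d. Its stages did not overlap (exact permutation p = 0.003571, adjusted p = 0.01607). The 13 skeletal muscle markers listed, with *Mybpc2* the most abundant, summed to 27.2, 21.8 and 23.6 FPKM at E18.5d, 16.5, 15 and 15.6 FPKM at P1d and 15.9, 15.9 and 19.9 FPKM at P7d. Of the 5 tested, 3 were lower at P1d against E18.5d, 2 were lower and 1 higher at P7d against P1d, and 4 were lower and 1, *Mybpc2*, higher at P7d against E18.5d. The median log2 change of the 5 tested was -0.4631, -0.3257 and -1.1236 in these comparisons. Of the 13 listed, *Myod1*, *Myh1*, *Myh2* and *Myh4* were at 0 to 0.1 FPKM in every heart. The part of skeletal muscle cells in the change of *Casq1* was not tested.

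Other genes of the list encode proteins that tether calsequestrin or hold the SR against the surface membrane. *Trdn* encodes triadin, an anchor between calsequestrin and the ryanodine receptor, and its stage means were 7.97, 8.75 and 9.68 FPKM. *Asph*, whose products include junctin, had stage means of 69.2, 68.2 and 71.6 FPKM. Neither was called, although the change of *Trdn* at P7d against E18.5d (0.26) passed with median of ratios, quantile normalization and without E18.5d replicate 3. *Jph2* (ENSMUSG00000017817.11, chr2:163336242-163397993, minus strand) encodes junctophilin 2, which bridges the T-tubule and the SR in cardiomyocytes. It was at 57, 54.9 and 55.1 FPKM at E18.5d, 66.2, 66.1 and 74.3 FPKM at P1d and 78.55, 87.3 and 76 FPKM at P7d. The 3 stages followed each other upward without overlap. *Jph2* was higher at P7d than in E18.5d hearts by 0.52 on the log2 scale (SE 0.070, limma, Benjamini-Hochberg adjusted p = 0.0002797). The rise at P1d was 0.30 (SE 0.070, limma adjusted p = 0.006357), and this call was lost with equal sums (0.13) and without the airway hearts, where the change was 0.34. The rise from P1d to P7d was 0.22 (SE 0.070, limma adjusted p = 0.02669), was 0.35 with equal sums, and its call was lost in a fit of the 2 stages alone, without the airway hearts (0.20) and on leaving out P1d replicate 1 or 2 or P7d replicate 2. *Jph1*, the junctophilin of skeletal muscle, had stage means of 4.09, 4.57 and 3.25 FPKM and was lower at P7d than at P1d and at E18.5d, the latter call being lost with median of ratios (-0.12), quantile normalization (-0.11), without the airway hearts (-0.25) and on leaving out either of E18.5d replicates 1 and 2 or of P7d replicates 1 and 3. Its change at P1d passed under quantile normalization alone among the scalings. The ratio of *Jph1* to *Jph2* was 0.073, 0.0742 and 0.0734 at E18.5d, 0.0671, 0.0765 and 0.0565 at P1d and 0.042, 0.0381 and 0.0409 at P7d, where it was below all other hearts (exact permutation p = 0.01429, adjusted p = 0.02857).

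*Hrc* (ENSMUSG00000038239.11, chr7:45335290-45338974, plus strand) encodes the histidine-rich calcium-binding protein of the SR lumen. It was at 62.2, 57.5 and 62.4 FPKM in the E18.5d hearts, 53.4, 50.6 and 58.9 FPKM in the P1d hearts and 126, 126 and 127 FPKM in the P7d hearts. The P7d hearts lay within 1 FPKM of each other and far above the others, while E18.5d and P1d overlapped. *Hrc* was 2.325-fold higher at P7d than at P1d (log2 change 1.20, SE 0.065, limma, Benjamini-Hochberg adjusted p = 5.453e-06) and 2.08-fold higher than in E18.5d hearts (log2 change 1.04, SE 0.065, adjusted p = 3.189e-06). Its change at P1d against E18.5d, -0.16 (limma adjusted p = 0.06873), passed with equal sums (-0.33) and without P1d replicate 3. *Srl* (ENSMUSG00000022519.13, chr16:4480216-4541816, minus strand) encodes sarcalumenin, another calcium-binding protein of the SR lumen. It was at 398, 357 and 359.6 FPKM at E18.5d, 542, 503 and 536 FPKM at P1d and 422, 424 and 402 FPKM at P7d. The P1d hearts were the highest, and no stage overlapped another. *Srl* rose by 0.51 on the log2 scale at P1d (SE 0.062, limma adjusted p = 0.0001944), a change of 0.33 with equal sums. It fell by 0.34 from P1d to P7d (SE 0.062, limma adjusted p = 0.002049), a call lost with equal sums (-0.21) and quantile normalization (-0.09). At P7d against E18.5d its change of 0.16 missed the threshold (limma adjusted p = 0.05084) and was called with median of ratios, quantile normalization (0.44), in a fit of the 2 stages alone and without E18.5d replicate 1 or P1d replicate 2. *Calr* (ENSMUSG00000003814.8, chr8:84841850-84846934, minus strand) encodes calreticulin, a calcium-binding chaperone of the endoplasmic reticulum. It was at 321, 315 and 323 FPKM at E18.5d, 151, 136 and 154 FPKM at P1d and 207, 202 and 208 FPKM at P7d. It was highest before birth and lowest at P1d, with P7d in between and no overlap. *Calr* fell by 1.12 on the log2 scale at P1d (SE 0.058, limma adjusted p = 2.194e-06), rose by 0.48 from P1d to P7d (SE 0.058, adjusted p = 0.0002127) and was still lower at P7d than in E18.5d hearts (log2 change -0.64, SE 0.058, adjusted p = 3.174e-05).

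Of the 7 calcium sensors and kinases of the list, 1 was higher and 3 lower at P1d than in E18.5d hearts, 3 higher and 2 lower at P7d than at P1d, and 2 higher and 2 lower at P7d than in E18.5d hearts. All genes tested also went in both directions, with 18.4% higher and 27.6% lower, 15.5% and 28.6%, and 12.5% and 36.9%. *S100a1*, a small calcium sensor that binds the SR pump and the ryanodine receptor, had stage means of 313, 414 and 424 FPKM. It rose at P1d (0.40, limma adjusted p = 0.0002741) and was higher at P7d than in E18.5d hearts (0.44, limma adjusted p = 0.0001482), but the call at P1d was lost with equal sums (0.23), and the change at P7d was 0.72 with quantile normalization. Its change from P1d to P7d, 0.04, passed with median of ratios and quantile normalization. The calcium/calmodulin-dependent kinase II has 4 genes, whose products phosphorylate the ryanodine receptor, phospholamban and calcium channels. *Camk2d*, the main cardiac form, had stage means of 141, 127 and 145 FPKM and was not called. Its change from P1d to P7d, 0.20 (limma adjusted p = 0.05487), passed with median of ratios, quantile normalization and without P1d replicate 3, its change at P1d passed without P1d replicate 3, and that at P7d against E18.5d passed with median of ratios. *Camk2a* (ENSMUSG00000024617.16), a form best known from neurons, was at 23.6, 24.8 and 26.2 FPKM at E18.5d, 17, 15.3 and 17.9 FPKM at P1d and 23.3, 22.9 and 20.0 FPKM at P7d. The P1d hearts were below the others, and the P7d hearts lay between P1d and E18.5d. *Camk2a* fell by 0.54 on the log2 scale at P1d (SE 0.081, limma, Benjamini-Hochberg adjusted p = 0.0005989) and rose by 0.38 from P1d to P7d (SE 0.081, adjusted p = 0.004958). *Camk2b* (ENSMUSG00000057897.14, chr11:5969644-6066362, minus strand), a form of neurons and skeletal muscle, was at 1.55, 1.73 and 2.13 FPKM at E18.5d, 1.64, 1.41 and 2.62 FPKM at P1d and 3.83, 3.51 and 4.2 FPKM at P7d. It was low throughout, the P7d hearts were above all others, and the earlier stages overlapped. *Camk2b* was 2.035-fold higher at P7d than at P1d (log2 change 0.77, SE 0.16, limma adjusted p = 0.003595) and 2.13-fold higher than in E18.5d hearts (log2 change 0.79, SE 0.16, adjusted p = 0.002487), the latter call being lost without the airway hearts, at 0.63. *Camk2g*, a form found in many tissues, had stage means of 24.85, 25.2 and 18.4 FPKM. It was lower at P7d than at P1d (-0.43, limma adjusted p = 0.0004385, lost with equal sums) and than in E18.5d hearts (-0.41, limma adjusted p = 0.0004184, and -0.27 with quantile normalization and -0.24 with median of ratios).

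Relative to *Camk2d* in the same heart, the 3 other kinase genes each differed between stages. The ratio of *Camk2g* to *Camk2d* was 0.173, 0.183 and 0.173 at E18.5d, 0.2, 0.209 and 0.188 at P1d and 0.131, 0.128 and 0.123 at P7d, with no overlap (exact permutation p = 0.003571, adjusted p = 0.01607). The mean ratio of *Camk2a* to *Camk2d* was 0.176, 0.132 and 0.153 at the 3 stages (exact permutation adjusted p = 0.02755). That of *Camk2b* to *Camk2d* was 0.0128, 0.0147 and 0.0266 (exact permutation adjusted p = 0.04091). The log2 difference of the former was -0.412 at P1d and -0.211 at P7d against E18.5d, where the stages overlapped. Its call was lost without E18.5d replicate 2 or 3, at -0.188 and -0.175 for P7d against E18.5d, and on leaving out any 1 P1d heart, which cannot move that difference, with adjusted p up to 0.06429. The call of the latter was lost without E18.5d replicate 1 or 2 or on leaving out any 1 P7d heart, with a log2 difference between P7d and E18.5d of 0.94 to 1.143 against 1.065, with adjusted p up to 0.09107. Calmodulin, the calcium sensor that activates these kinases, is encoded by several genes with the same protein product. *Calm2* had stage means of 148, 118 and 105 FPKM and was lower at P1d than in E18.5d hearts (-0.33, limma adjusted p = 0.001918) and lower at P7d than in E18.5d hearts (-0.49, limma adjusted p = 0.0001685). The change at P1d was -0.50 with equal sums and -0.22 with quantile normalization, and that at P7d was -0.32 with quantile normalization and -0.31 with median of ratios, while the call at P1d was lost without the airway hearts, with the change at -0.33. Its change from P1d to P7d (-0.17, limma adjusted p = 0.04825) was lost with each of the scalings, at -0.04 with equal sums, -0.10 with quantile normalization and -0.06 with median of ratios, and also without a filter, without the trend, in a fit of the 2 stages alone, without the airway hearts (-0.21) and on leaving out any heart but P1d replicate 1, at -0.11 without P1d replicate 3. *Calm3* had stage means of 109, 82.6 and 98.6 FPKM, fell at P1d (-0.39, limma adjusted p = 0.0006651, lost without the airway hearts at -0.29) and rose from P1d to P7d (0.25, limma adjusted p = 0.007969, and 0.38 with equal sums). The ratio of *Calm3* to *Calm2* was 0.802, 0.729 and 0.677 at E18.5d, 0.705, 0.737 and 0.66 at P1d and 0.939, 0.96 and 0.919 at P7d, where it was above all other hearts (exact permutation p = 0.01786, adjusted p = 0.03214, but 0.05357 without E18.5d replicate 1, with a log2 difference of 0.419 against 0.355). Fragments of the calmodulin genes may be shared between similar copies, so the levels of each are uncertain.

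Of the 6 voltage-gated calcium channel genes tested, 1 was higher and 0 lower at P1d than in E18.5d hearts, 1 higher and 3 lower at P7d than at P1d, and 2 higher and 2 lower at P7d than in E18.5d hearts. The shares of all genes tested were 18.4% and 27.6%, 15.5% and 28.6%, and 12.5% and 36.9%. *Cacna1c* (ENSMUSG00000051331.14, chr6:118587240-119196418, minus strand) encodes the pore of the cardiac L-type channel, whose current triggers SR release. It was at 108, 92.9 and 114 FPKM in the E18.5d hearts, 184, 151 and 164 FPKM in the P1d hearts and 115, 106 and 105 FPKM in the P7d hearts. All P1d hearts stood above the other 6, and E18.5d and P7d overlapped. *Cacna1c* rose 1.58-fold at P1d (log2 change 0.66, SE 0.094, limma, Benjamini-Hochberg adjusted p = 0.0004906) and fell by 0.61 on the log2 scale from P1d to P7d (SE 0.094, adjusted p = 0.0008886). Its log2 change at P7d against E18.5d was 0.05 (limma adjusted p = 0.6924). *Cacna1d*, the L-type pore that also serves sinoatrial pacemaking, was low, with stage means of 2.71, 2.64 and 1.71 FPKM. It was lower at P7d than at P1d (-0.41, limma adjusted p = 0.03772) and than in E18.5d hearts (-0.46, limma adjusted p = 0.02168), but neither call was firm. The former was lost with each of the scalings, without a filter, in a fit of the 2 stages alone, without the airway hearts (-0.47) and on leaving out any heart but P1d replicate 1 or 2, and was -0.24 without P1d replicate 3; the latter was lost with median of ratios, quantile normalization (-0.29), without a filter, without the airway hearts (-0.49) and without either of E18.5d replicates 1 and 3 or P7d replicate 2. *Cacna1s*, the L-type pore of skeletal muscle, was under the filter, at 0.34, 0.11 and 0.22 FPKM at E18.5d, 0.36, 0.80 and 0.36 FPKM at P1d and 0.63, 0.60 and 0.83 FPKM at P7d. Its P7d hearts (an estimated 143, 156 and 233 fragments) lay above the E18.5d hearts, and P1d replicate 2 lay among them. Relative to *Cacna1c*, the mean ratio was 0.00208, 0.00315 and 0.00635 for *Cacna1s* (exact permutation adjusted p = 0.0551) and 0.0259, 0.016 and 0.0158 for *Cacna1d* (exact permutation adjusted p = 0.0544), so that neither passed. With 1 FPKM added to each gene both passed, with exact permutation adjusted p of 0.02755 and 0.02473. The former also passed without E18.5d replicate 1 or P1d replicate 2 (each 0.045). The latter also passed without P1d replicate 3 (0.02143) and with quantile normalization (0.03333, adjusted over 16 ratios).

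The T-type channels, which open at more negative voltages, moved apart after birth. *Cacna1g* had stage means of 13.4, 14.9 and 19.0 FPKM and was higher at P7d than at P1d (0.33, limma adjusted p = 0.01381) and than in E18.5d hearts (0.47, limma adjusted p = 0.001979). The former call was lost without P7d replicate 2, and without the *Xist* hearts the changes were 0.17 and 0.23. *Cacna1h* had stage means of 7.45, 7.23 and 5.31 FPKM and was lower at P7d than at P1d (-0.38, limma adjusted p = 0.01259) and than in E18.5d hearts (-0.41, limma adjusted p = 0.00776). The former was lost with equal sums and with median of ratios, and the latter with median of ratios (-0.25) and quantile normalization (-0.26), and it was -0.64 without the airway hearts. The ratio of *Cacna1h* to *Cacna1g* was 0.502, 0.5 and 0.667 at E18.5d, 0.463, 0.496 and 0.501 at P1d and 0.305, 0.264 and 0.275 at P7d. The P7d hearts were below all others (exact permutation p = 0.007143, adjusted p = 0.02143). The 6 conduction system markers listed, with *Tbx3* the most abundant, summed to 13.1, 13 and 14.5 FPKM at E18.5d, 14.5, 12.2 and 15 FPKM at P1d and 9.87, 9.98 and 9.69 FPKM at P7d. Of the 5 tested, *Cntn2* was higher and *Hcn4*, *Shox2* and *Cpne5* were lower at P7d than in E18.5d hearts; at P1d 1 was higher and 1 lower than in E18.5d hearts, at P7d against P1d 2 were lower, no stage mean was at 0, and their part in the changes of *Cacna1d*, *Cacna1g* and *Cacna1h* was not tested. *Cacnb2*, the auxiliary subunit that brings the L-type pore to the membrane, had stage means of 29.9, 34.7 and 38.55 FPKM. It was higher at P7d than in E18.5d hearts (0.35, limma adjusted p = 0.04692), a call that was lost with equal sums, without a filter, without the trend, without the airway hearts (0.33) and on leaving out any heart but P1d replicate 2 or 3, and its change at P1d passed without P1d replicate 2. *Cacna2d1*, the auxiliary subunit on the outer face of the channel, had stage means of 23.65, 23.7 and 24.1 FPKM and was not called.

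The 3 genes of the exchanger and pumps of the surface membrane were each called lower at P7d than in E18.5d hearts, beside 36.9% of all genes, but 1 of them, *Atp2b4*, was not with median of ratios or quantile normalization. *Slc8a1* (ENSMUSG00000054640.14, chr17:81373105-81738377, minus strand) encodes the sodium/calcium exchanger NCX1, which carries calcium out of the cardiomyocyte. It was at 645, 638.5 and 631 FPKM in the E18.5d hearts, 655, 565 and 671 FPKM in the P1d hearts and 421, 394 and 433 FPKM in the P7d hearts. E18.5d and P1d overlapped, and each P7d heart was below them. *Slc8a1* fell by 0.60 on the log2 scale from P1d to P7d (SE 0.074, limma, Benjamini-Hochberg adjusted p = 0.0002534), and its change at P7d against E18.5d was -0.62 (SE 0.074, adjusted p = 0.0001493), 0.652 times the fetal mean. With quantile normalization these changes were -0.36 and -0.33 and still passed. The ratio of *Slc8a1* to *Atp2a2*, the exchanger against the SR pump, was 0.525, 0.533 and 0.529 at E18.5d, 0.324, 0.27 and 0.319 at P1d and 0.168, 0.162 and 0.198 at P7d. It dropped at each step with no overlap (exact permutation p = 0.003571, adjusted p = 0.01607), and the log2 difference between P7d and E18.5d was -1.59. *Atp2b1* (ENSMUSG00000019943.9, chr10:98914406-99026143, plus strand) encodes a calcium pump of the plasma membrane. It was at 16.7, 17.4 and 18.4 FPKM at E18.5d, 11.7, 10.7 and 13.4 FPKM at P1d and 13, 11.8 and 13.4 FPKM at P7d. The fetal hearts were the highest, and the neonatal stages overlapped. *Atp2b1* fell by 0.52 on the log2 scale at P1d (SE 0.087, limma adjusted p = 0.001093), and its change at P7d against E18.5d was -0.43 (SE 0.087, adjusted p = 0.0029), or -0.28 with quantile normalization and -0.26 with median of ratios. Without the airway hearts these changes were -0.58 and -0.50, no smaller than with them, but neither passed (adjusted p = 0.05118 and 0.05542). *Atp2b4*, a related pump, had stage means of 21.9, 16.3 and 17.7 FPKM and was lower at P1d (-0.41, limma adjusted p = 0.004668) and at P7d (-0.29, limma adjusted p = 0.02199) than in E18.5d hearts. The call at P7d was lost with median of ratios (-0.12), quantile normalization (-0.15) and without either of E18.5d replicates 1 and 3 or of P7d replicates 1 and 2 (-0.27 to -0.30). Without the airway hearts the changes at P1d and P7d were -0.50 and -0.34, no smaller than with them, and did not pass. The mean ratio of *Atp2b4* to *Atp2b1* was 1.25, 1.39 and 1.39 (exact permutation adjusted p = 0.6643).

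Of the 5 genes of inositol trisphosphate (IP3) receptors and store-operated entry, 0 were called at P1d against E18.5d, 1 was higher and 1 lower at P7d than at P1d, and 1 was lower at P7d than in E18.5d hearts. Over all genes tested, 18.4% were higher and 27.6% lower, 15.5% and 28.6%, and 12.5% and 36.9%. IP3 receptors release calcium from internal stores after receptor signalling. *Itpr1* was the most abundant, with stage means of 48.35, 44.2 and 50.5 FPKM, and rose from P1d to P7d (0.19, limma adjusted p = 0.01955). The change was 0.32 with equal sums, where the call was lost, 0.32 with quantile normalization and 0.30 with median of ratios, and it was also lost without the airway hearts (0.20) and without P7d replicate 1 or 3. Its change at P1d against E18.5d, -0.13, passed with equal sums, and that at P7d against E18.5d, 0.06, passed with median of ratios and quantile normalization. *Itpr2* had stage means of 21.9, 22.0 and 16.55 FPKM and was lower at P7d than at P1d (-0.39, limma adjusted p = 0.002985, lost with equal sums) and than in E18.5d hearts (-0.39, limma adjusted p = 0.002702, lost with median of ratios at -0.21, and -0.25 with quantile normalization). *Itpr3* was low, with stage means of 3.30, 3.38 and 3.53 FPKM, and was not called. The ratio of *Itpr2* to *Itpr1* was 0.455, 0.439 and 0.465 at E18.5d, 0.534, 0.457 and 0.505 at P1d and 0.33, 0.325 and 0.328 at P7d. The P7d hearts were close together and under all others (exact permutation p = 0.007143, adjusted p = 0.02143), whereas the ratio of *Itpr3* to *Itpr1*, with means of 0.0684, 0.0765 and 0.0701, did not pass (exact permutation adjusted p = 0.4878). *Stim1* encodes the sensor of the store's filling, with stage means of 9.87, 12.2 and 9.90 FPKM. *Orai1* encodes the channel that it opens, with stage means of 6.78, 6.10 and 7.19 FPKM. Neither was called, but *Stim1* passed at P1d with median of ratios, quantile normalization and without P1d replicate 3, and at P7d against P1d without E18.5d replicate 1, and *Orai1* passed at P7d against P1d with median of ratios.

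Of the 2 T-tubule genes, 1 had its highest and the other its lowest stage mean at P1d. *Cav3*, the muscle caveolin of surface and T-tubule membranes, had stage means of 75.2, 97.8 and 69.2 FPKM. It rose at P1d (0.37, limma adjusted p = 0.001694), a call lost with equal sums (0.20), and fell from P1d to P7d (-0.50, limma adjusted p = 0.0004172). *Bin1*, which bends the membrane into tubules, had stage means of 7.29, 5.73 and 8.34 FPKM. It rose from P1d to P7d (0.49, limma adjusted p = 0.00941), a call lost without the airway hearts (0.34), and its change at P1d against E18.5d, -0.32 (limma adjusted p = 0.05423), passed with equal sums and without P1d replicate 2. Neither was called at P7d against E18.5d. Of the mitochondrial uniporter genes, *Mcu*, the pore, had stage means of 12.8, 9.33 and 9.90 FPKM and fell at P1d (-0.41, limma adjusted p = 0.003131). It was lower at P7d than in E18.5d hearts (-0.34, limma adjusted p = 0.008406), a call lost with median of ratios (-0.17) and quantile normalization (-0.19), and both calls were lost without the airway hearts (-0.32 and -0.24). *Micu2*, a gatekeeper of the pore, had stage means of 22.75, 23.3 and 25.5 FPKM and was not called, though it passed at P7d against both earlier stages with median of ratios and quantile normalization. *Smdt1*, the small subunit EMRE that the pore needs to conduct, had stage means of 114, 101.5 and 102 FPKM and was not called, though it passed at P1d with equal sums and without P1d replicate 3. The mean ratio of *Micu2* to *Mcu* was 1.79, 2.5 and 2.58 (exact permutation p = 0.03214, adjusted p = 0.04821), with the fetal hearts below the neonatal ones, and a log2 difference of 0.528 between P7d and E18.5d. It was 0.457 to 0.572 on leaving out any E18.5d heart, and the call was then lost, as it was without P1d replicate 1 or 2, which cannot move that difference (adjusted p up to 0.05357). That of *Smdt1* to *Mcu* was 8.94, 10.9 and 10.3 and did not pass (exact permutation adjusted p = 0.1543).

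**Figure D3:**
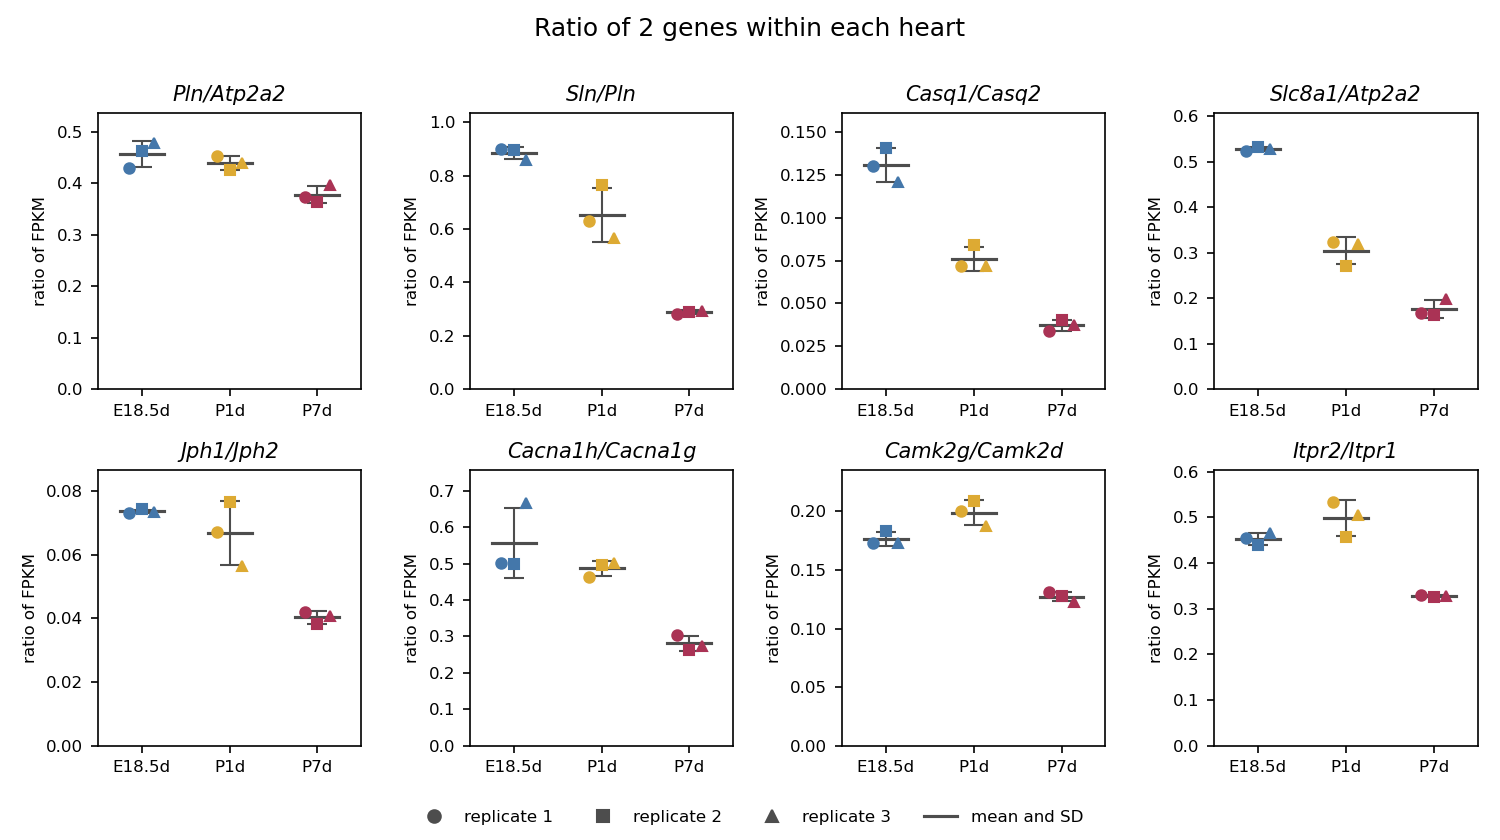
The ratio of FPKM of 2 genes within each heart is shown by stage for 8 of the 18 ratios tested, with each point a heart, its shape the replicate number, and lines the mean and SD of 3 hearts; every axis starts at 0. The 8 shown are those of the 18 in which the P7d hearts lie below all other hearts, with *Slc8a1*/*Atp2a2* at 0.168, 0.162 and 0.198 and *Sln*/*Pln* at 0.28, 0.289 and 0.294. In *Calm3*/*Calm2*, *Camk2b*/*Camk2d* and *Cacna1s*/*Cacna1c*, which are not shown, the P7d hearts lie above all others.

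Another 73 genes of calcium handling, outside the 42, were listed beside them, and 55 of these passed the filter. Of the 55, 15 were higher and 14 lower at P1d than in E18.5d hearts (27.3% and 25.5%, beside 18.4% and 27.6% of all genes tested). At P7d, 17 were higher and 9 lower than at P1d (30.9% and 16.4%, beside 15.5% and 28.6%), and 20 higher and 13 lower than in E18.5d hearts (36.4% and 23.6%, beside 12.5% and 36.9%). At P1d against E18.5d, 5 of the 55 were higher and 19 lower with equal sums (9.09% and 34.5%, beside 8.63% and 34.5% of all genes), 17 and 11 with median of ratios (30.9% and 20.0%, beside 23.2% and 22.9%) and 16 and 11 with quantile normalization (29.1% and 20.0%, beside 23.5% and 22.5%). At P7d against P1d, 14 of the 55 were higher and 6 lower with equal sums (25.5% and 10.9%, beside 16.2% and 12.7% of all genes), 21 and 8 with median of ratios (38.2% and 14.5%, beside 21.9% and 19.8%) and 22 and 8 with quantile normalization (40% and 14.5%, beside 21.1% and 20.5%). At P7d against E18.5d, 12 of the 55 were higher and 11 lower with equal sums (21.8% and 20.0%, beside 9.3% and 32.6% of all genes), 24 and 7 with median of ratios (43.6% and 12.7%, beside 21.3% and 20.9%) and 25 and 8 with quantile normalization (45.5% and 14.5%, beside 21.2% and 21.6%). The counts of smaller groups stand beside the same shares of all genes, and with so few genes they were not tested. The median log2 change of the 55 was -0.0076, 0.0725 and 0.0258 in the 3 comparisons, beside -0.0582, -0.0932 and -0.1732 over all genes. It was -0.1693, 0.1734 and -0.0166 with equal sums and 0.0626, 0.1583 and 0.2028 with median of ratios. With quantile normalization it was 0.0746, 0.1744 and 0.1798, so its sign depends on the scaling at P1d and at P7d against E18.5d. The genes named here passed the limma threshold with an absolute log2 change of at least 0.5 in a comparison. Among other SR genes, *Atp2a3*, the SERCA3 pump, was higher at P1d (0.84) and at P7d (1.15) than in E18.5d hearts. *Ryr3*, a further ryanodine receptor, fell from P1d to P7d (-1.18) and was lower at P7d than in E18.5d hearts (-1.51). The chaperone calnexin (*Canx*) fell at P1d (-0.96), as did *Jsrp1* (-1.10), a junctional SR protein of skeletal muscle that was also lower at P7d than in E18.5d hearts (-1.06), and *Fkbp1a* (-0.56), the close relative of *Fkbp1b*. *Sri*, which encodes the calcium-binding protein sorcin, fell from P1d to P7d (-0.53). Of 9 other SR genes tested, 2 were higher and 5 lower at P7d than in E18.5d hearts, with 4 and 4 at P1d against E18.5d and 3 and 2 at P7d against P1d. The other T-tubule and membrane genes were higher in 5 of 7 cases and lower in 0 at P7d against each earlier stage, and at P1d 2 were higher and 2 lower than in E18.5d hearts. *Trim72*, a membrane repair gene of muscle, was at 4.64, 4.89 and 4.56 FPKM at E18.5d, 7.08, 5.23 and 6.5 FPKM at P1d and 40.6, 38.3 and 42.8 FPKM at P7d. It was 8.64-fold higher at P7d than in E18.5d hearts (log2 change 2.87, SE 0.096, limma, Benjamini-Hochberg adjusted p = 1.638e-07) and rose by 2.52 from P1d to P7d. *Dysf*, the repair gene dysferlin, rose from P1d to P7d (0.92) and was higher at P7d than in E18.5d hearts (0.75), as was *Cmya5* (0.76 and 0.80), and *Mtm1*, the phosphatase myotubularin, was higher at P1d (0.57) and P7d (0.79) than in E18.5d hearts.

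Among other calcium channel genes, *Cacna2d2*, an auxiliary subunit, was lower in each comparison, by log2 changes of -0.61 at P1d against E18.5d, -1.26 at P7d against P1d and -1.87 at P7d against E18.5d. *Gem* and *Rrad* encode small GTP-binding proteins that restrain L-type channels. *Gem* rose at P1d (0.83) and fell from P1d to P7d (-0.97), and *Rrad* fell at P1d (-0.51) and rose from P1d to P7d (0.85). Of the 8 tested in this group, 1 was higher and 2 lower at P1d against E18.5d, 3 and 2 at P7d against P1d, and 2 and 1 at P7d against E18.5d. Of 5 other exchanger, pump and store-operated entry genes, 2 were higher at P1d and 4 at P7d than in E18.5d hearts, none was lower, and none was called at P7d against P1d; *Saraf*, a brake on store-operated entry, rose at P1d (0.51). Of 18 calmodulin, kinase and phosphatase genes, 5 were higher and 6 lower at P1d and again at P7d against E18.5d, and 5 higher and 4 lower at P7d against P1d. *Ppp1r1a*, an inhibitor of protein phosphatase 1, was lower in each comparison (-0.55, -0.52 and -1.07), *Ppp1cc*, a catalytic subunit of that phosphatase, was lower at P7d than in E18.5d hearts (-0.68), and *Akap6*, an anchor of protein kinase A, rose from P1d to P7d (0.61). Of 8 other mitochondrial calcium genes, 1 was higher and 0 lower at P1d against E18.5d, 1 and 1 at P7d against P1d, and 2 and 1 at P7d against E18.5d.

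Markers of other cell types that share some of these calcium genes also differed between stages, and their part in the changes of the list was not tested. The 6 fibroblast markers, led by *Col3a1*, summed to 1731, 1734 and 1672 FPKM at E18.5d, 1406, 1834 and 1472 FPKM at P1d and 2343, 2255 and 2318 FPKM at P7d, with 3 lower at P1d against E18.5d, 3 higher at P7d against P1d and 2 higher at P7d against E18.5d. The 6 endothelial markers, led by *Pecam1*, summed to 406, 396 and 376 FPKM at E18.5d, 458, 489 and 444 FPKM at P1d and 523, 505 and 517 FPKM at P7d, with 3 higher and 1 lower, 2 higher and 1 lower, and 5 higher and 1 lower in the same order of comparisons. The 6 smooth muscle and pericyte markers, led by *Acta2*, summed to 923, 955 and 769 FPKM at E18.5d, 872, 781 and 857 FPKM at P1d and 703, 760.1 and 811 FPKM at P7d, with 1 higher and 1 lower, 2 and 2, and 2 and 3. So the stromal and vascular lists did not move as 1 block. The 6 macrophage markers, led by *C1qa*, summed to 63.9, 59.5 and 49.6 FPKM at E18.5d, 80.7, 97.5 and 72 FPKM at P1d and 73.6, 77.3 and 70.1 FPKM at P7d, with 4, 1 and 2 higher and none lower. The 7 erythroid markers, led by *Hbb-bs*, summed to 11101, 8419.9 and 22749 FPKM at E18.5d, 15704, 24732 and 12736 FPKM at P1d and 10411, 8552 and 10224 FPKM at P7d, with 1 higher at P1d against E18.5d, 2 lower at P7d against P1d and none called at P7d against E18.5d. The 10 neuron and glia markers, led by *Stmn2*, summed to 6.9, 12.8 and 6.37 FPKM at E18.5d, 7.66, 9.54 and 6.04 FPKM at P1d and 5.75, 5.85 and 6.19 FPKM at P7d, and of the 2 tested none was called. None of the markers in these 6 lists had a mean of 0 at any stage, but the neuronal and glial ones were near it. The 4 brown fat markers, led by *Cidea*, which heart muscle also expresses, summed to 7.77, 6.13 and 7.27 FPKM at E18.5d, 25.9, 26.3 and 26 FPKM at P1d and 33.6, 38.9 and 34.2 FPKM at P7d; *Ucp1*, which defines brown fat, was at 0 FPKM in each E18.5d heart, at 0.05, 0 and 1.31 FPKM at P1d and at 5.77, 7.26 and 6.84 FPKM at P7d. Of the 3 brown fat genes tested, 2 were higher at P1d than in E18.5d hearts, 1 higher and 1 lower at P7d than at P1d, and 3 higher at P7d than in E18.5d hearts. The 4 thymus markers, led by *Cd8a*, summed to 0.10, 0.25 and 0.12 FPKM at E18.5d, 0.05, 0.09 and 0.13 FPKM at P1d and 0.10, 0.18 and 0.30 FPKM at P7d, and none of them passed the filter. Of the 3 lung genes and 5 sex genes tested, none was called by limma in any comparison.

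The promoters of the genes were also read for short motifs. The windows used from the RefSeq table of GRCm38.p6 hold 35 starts for 29 of the 42 genes, each with 300 bases, from 250 before the start to 50 after it. Windows of the chromosome that holds *Camk2a* and *Bin1* were left out, for members and for all genes alike. Both strands were searched for the E-box CANNTG, the GATA motif AGATAA, the M-CAT motif CATTCC, the TATA box TATAAA, the MEF2 motif and the CArG box, and matches to different motifs may overlap. An E-box was in 25 of the 35 member windows (71.4%) and in 72.3% of all 32851 windows used. The GATA motif was in 8.57% against 11.2% of all, the M-CAT motif in 11.4% against 14.7%, the TATA box in 8.57% against 13.6% and the MEF2 motif in 2.86%, that of *Casq2*, against 3.19%. The CArG box was in 0 of the member windows and in 1.63% of all. No motif was thus held by a larger share of the member windows than of all windows. The windows of *Pln*, *Ryr2*, *Hrc* and *Casq1* are printed as examples of uptake, release and storage genes that changed. They lie at chr10:53337436-53337735 on the plus strand, chr13:12106896-12107195 on the minus strand, chr7:45335019-45335318 on the plus strand and chr1:172219846-172220145 on the minus strand, and each spans the upstream flank and the first transcribed bases. Capitals mark motif matches on either strand: 2 E-boxes, 1 GATA motif and 1 TATA box for *Pln*, 2 E-boxes for *Ryr2*, 1 for *Hrc* and 2 for *Casq1*. The TATA match of *Pln* begins at -219, counted from the start of transcription. A match describes letters and shows no binding.
Pln: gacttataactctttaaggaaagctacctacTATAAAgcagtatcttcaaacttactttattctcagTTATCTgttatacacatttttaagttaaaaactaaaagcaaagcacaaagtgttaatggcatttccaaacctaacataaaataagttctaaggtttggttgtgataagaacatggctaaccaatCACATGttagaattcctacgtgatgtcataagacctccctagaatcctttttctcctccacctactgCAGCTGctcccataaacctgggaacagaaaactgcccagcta
Ryr2: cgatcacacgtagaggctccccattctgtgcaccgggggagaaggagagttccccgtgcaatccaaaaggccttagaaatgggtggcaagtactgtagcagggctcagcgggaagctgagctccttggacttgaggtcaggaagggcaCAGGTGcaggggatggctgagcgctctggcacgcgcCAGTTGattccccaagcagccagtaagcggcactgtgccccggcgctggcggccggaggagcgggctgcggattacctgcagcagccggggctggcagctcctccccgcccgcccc
Hrc: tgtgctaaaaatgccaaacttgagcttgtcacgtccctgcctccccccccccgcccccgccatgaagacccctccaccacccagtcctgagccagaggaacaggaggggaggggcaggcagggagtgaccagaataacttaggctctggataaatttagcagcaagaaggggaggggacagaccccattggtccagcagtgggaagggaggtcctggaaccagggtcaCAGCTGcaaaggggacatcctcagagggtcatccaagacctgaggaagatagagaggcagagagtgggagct
Casq1: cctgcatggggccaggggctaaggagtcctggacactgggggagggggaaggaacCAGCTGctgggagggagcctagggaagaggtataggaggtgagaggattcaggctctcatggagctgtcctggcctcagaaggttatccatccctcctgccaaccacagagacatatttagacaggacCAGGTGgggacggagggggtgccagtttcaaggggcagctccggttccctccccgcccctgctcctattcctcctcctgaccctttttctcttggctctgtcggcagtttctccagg

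Exons of 17 of the 42 genes share bases with another annotated gene, and for 4 of them the partner had a mean of at least 1 FPKM. *Atp2a1* shares 21.9% of its exonic bases with *Rabep2* on the opposite strand, which had a mean of 6.48 FPKM against 0.153 for *Atp2a1*. *Smdt1* shares 16.6% with *Pheta2* on the same strand (1.97 FPKM), *Pln* 5.11% with *Cep85l* on the opposite strand (10.9 FPKM) and *Atp2a2* 1.36% with *Gm43361* on the opposite strand (21.2 FPKM). *Pln* also shares 59.6% with *Gm47644* on the opposite strand, a gene that has no value in the table. Whether the counting used strand was not given in the sources used here, so fragments of these stretches cannot be assigned to either gene.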

How the data were processed

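RNA sequencing of 9 perinatal mouse hearts, 3 at each of 3 stages, was read from the deposited table of 48820 genes. Per the labels, total RNA was extracted with Trizol and libraries were made with a NEBNext Ultra RNA kit. The FPKM values were made by the authors before they were deposited, with STAR and the GRCm38 (mm10) genome named in the submitters' processing notes; versions, counting tool and annotation were not given in the sources used here. Values were used as deposited. Columns were matched to samples by their names.

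Depth was estimated per heart from the steps between low FPKM values. Of these values, 77.0% to 82.0% came close to a whole number of fragments, against 16.8% to 19.7% by chance. At these depths, 1 fragment per kilobase is 0.0222 to 0.0392 FPKM. Positions are of GENCODE M21, which holds 48144 of the identifiers, 40692 in the same version.

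Stages were compared with limma 3.58.1 run in R 4.3.3, through lmFit, contrasts.fit and a trended eBayes, on log2(FPKM + 1) for genes whose mean reached 1 FPKM, with Benjamini-Hochberg adjustment over 13618 genes. Ratios, exact tests, counts and plots were made with Python 3.11.15, numpy 2.4.6, pandas 2.3.3 and matplotlib 3.10.9. Scripts were tested on simulated data. Members and lists were chosen with earlier results of these data known, so no test was made over a list. Values per heart are given for members past the threshold with an absolute log2 change of at least 0.5 in a comparison. Of 73 other calcium genes, up to 10 per comparison were named by the same limits, largest first. Markers in 14 lists, of cell types, tissues and sex, were summed per heart. Alternatives were other scalings, pseudocounts, filters and fits, a covariate for *Xist*, and leaving out each heart, the 4 hearts with *Xist* above 1 FPKM or the 3 with *Scgb3a1* above 10 FPKM. Promoter motifs were counted in the RefSeq windows of GRCm38.p6, apart from those of the chromosome that holds *Camk2a* and *Bin1*.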

Additional observations from a re-analysis of the deposited data

How the results depend on the processing

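The counts of members called were compared across scalings, filters, fits and hearts. Without the hearts with *Xist* or the airway hearts, smaller shares of all genes tested were higher and lower in each comparison too. A lower count of members in those fits is therefore not particular to the list. With the covariate for *Xist*, 10.8% of all genes were higher at P7d against P1d, beside 15.5% in the fit as reported. The shares of all genes under the other scalings are given above. At P1d against E18.5d, 9 members were higher and 8 lower in the limma fit as reported. The count of higher members was 5 with columns rescaled to an equal sum, 3 without the hearts with *Xist* and 0 with an absolute log2 change of at least 1 asked for as well. The count of lower members was 2 without the hearts with *Xist*, 3 without the hearts with airway transcripts and 1 with the change of at least 1. At P7d against P1d (10 higher, 12 lower), the higher count was 5 with the covariate for *Xist*, 1 without the hearts with *Xist*, 6 without the airway hearts and 1 with the change of at least 1, and the lower count was 6 with equal sums, 1 without the hearts with *Xist* and 2 with the change of at least 1. At P7d against E18.5d (9 higher, 14 lower), the higher count was 14 with median of ratios, 0 by limma without the hearts with *Xist* and 1 with the change of at least 1, and the lower count was 7 with median of ratios, 8 with quantile normalization, 1 without the hearts with *Xist*, 8 without the airway hearts and 1 with the change of at least 1.

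The median log2 change of members moved with the scaling in each comparison and changed sign in 2. At P1d against E18.5d (-0.0107 as reported) it was -0.1675 with equal sums, 0.0584 with median of ratios, 0.0452 with quantile normalization, 0.003 without a filter, -0.0217 with a minimum of 5 FPKM, -0.0031 with the covariate for *Xist*, 0.01 without the hearts with *Xist* and -0.0428 without the airway hearts, and -0.0396 to 0.0568 on leaving out each heart. At P7d against P1d (0.0617) it was 0.1811 with equal sums, 0.1634 with median of ratios, 0.1811 with quantile normalization, 0.0277 with the covariate for *Xist* and 0.0306 without the hearts with *Xist*, and 0.0145 to 0.0731 on leaving out each heart. At P7d against E18.5d (0.0199) it was -0.0209 with equal sums, 0.1897 with median of ratios, 0.1731 with quantile normalization, -0.0535 without the hearts with *Xist* and -0.0636 without the airway hearts, and -0.0474 to 0.0481 on leaving out each heart. The only member to change sign with a call was *Pln* at P7d against P1d, at 0.3069 with quantile normalization. On leaving out each heart, the higher and lower counts were 8 to 10 and 8 to 11 at P1d against E18.5d, 7 to 10 and 10 to 12 at P7d against P1d, and 8 to 10 and 11 to 14 at P7d against E18.5d. A pseudocount of 0.1, a minimum of 5 FPKM, a fit without the trend and a fit of 2 stages each left every count within 1.5 times. What moved these counts was not tested, and the fits that leave hearts out also hold fewer hearts. The alternative without the airway hearts, which leaves 1 E18.5d heart, the ratios after quantile normalization, where *Pln* to *Atp2a2* lost its call, and the scalings of the other calcium genes were chosen after seeing the data.

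The replicate numbers do not pair the hearts: deviations from the stage means of hearts with the same number correlated at -0.055 to 0.112, and not every heart correlated best with its own number. With the number as a replicate block, 9 members were higher and 8 lower, 9 higher and 12 lower, and 9 higher and 14 lower, and the only call lost was that of *Atp2a2* at P7d against P1d. With 3 hearts a stage, small changes and genes of few fragments, such as *Fkbp1b*, are measured with little precision.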
